A study of Mus musculus with 2 samples.

Results

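The genes described here encode 6 abundant secreted products of the mouse prostate lobes and adjoining glands: probasin (Pbsn), prostate transglutaminase (Tgm4), beta-microseminoprotein (Msmb), the RIKEN gene 9530002B09Rik, zinc-alpha2-glycoprotein (Azgp1) and Ceacam10. Kazal-type inhibitors and spermine-binding proteins, which the lobe also secretes, are left aside. The 6 were chosen as genes, and their probes were found through the RefSeq accession that the array files give for each probe. Each gene had 1 probe and each probe 1 spot per array, so 6 of 41174 non-control probes and 6 of 18952 named genes are covered. All 6 were detected, among 10435 detected genes. RNA came from dorsolateral prostates of FVB/N mice aged 6 months. The transgenic pool was RNA of 6 mice carrying ARR2PB-miR32, and the wild-type pool was RNA of 6 mice without it. ARR2PB is a composite promoter made from rat probasin sequence that drives androgen-dependent expression in prostate epithelial cells, so the mouse Pbsn probe reports the endogenous gene. Both pools were hybridised together on 2 arrays, with the transgenic pool in Cy3 on array 1 and in Cy5 on array 2. Because the arrays repeat the same RNA, they are 1 replicate. Genotype could not be tested, no p-value is given, and each ± is the SD over 2 arrays.

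Prostate secretion is made by luminal epithelial cells, which send large amounts of a few proteins through the endoplasmic reticulum and Golgi into the duct lumen. In the mouse, most of these genes depend on androgen and their levels differ strongly between lobes. Tgm4 protein cross-links seminal vesicle proteins into the copulatory plug, and Ceacam10 is better known as a product of the seminal vesicle than of the prostate. The transgene expresses miR-32, whose mature mouse sequence from RefSeq is given with its seed, bases 2 to 8, in capitals.
mmu-miR-32-5p: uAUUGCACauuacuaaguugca

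Regulatory sequence just around the transcription start was compared between the genes, because the transgene itself is driven by a probasin-derived promoter. RefSeq windows of 300 bases (250 before to 50 after the start, GRCm38.p6) were matched by symbol for 5 of the 6 genes, the exception being Msmb. They were searched for AGAACA and its reverse complement TGTTCT, the hexamer that the androgen receptor and other steroid receptors recognise. The windows of Pbsn, 9530002B09Rik and Ceacam10 are shown for the promoter family behind the transgene and for 2 of the genes that were lower, with each hexamer in capitals. The first is at chrX:77853451-77853750 on the minus strand, the second at chr4:122689009-122689308 on the plus strand and the third at chr7:24776917-24777216 on the plus strand.
Pbsn: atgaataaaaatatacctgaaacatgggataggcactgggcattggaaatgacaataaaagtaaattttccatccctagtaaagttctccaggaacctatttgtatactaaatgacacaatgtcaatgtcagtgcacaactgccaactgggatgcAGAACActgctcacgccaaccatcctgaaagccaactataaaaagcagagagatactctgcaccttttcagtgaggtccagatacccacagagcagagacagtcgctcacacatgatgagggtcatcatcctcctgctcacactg
9530002B09Rik: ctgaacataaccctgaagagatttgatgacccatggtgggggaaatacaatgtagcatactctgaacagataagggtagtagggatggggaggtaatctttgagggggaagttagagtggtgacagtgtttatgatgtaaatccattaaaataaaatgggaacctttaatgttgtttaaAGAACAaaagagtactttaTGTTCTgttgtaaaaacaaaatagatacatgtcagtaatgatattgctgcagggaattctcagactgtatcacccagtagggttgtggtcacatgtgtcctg
Ceacam10: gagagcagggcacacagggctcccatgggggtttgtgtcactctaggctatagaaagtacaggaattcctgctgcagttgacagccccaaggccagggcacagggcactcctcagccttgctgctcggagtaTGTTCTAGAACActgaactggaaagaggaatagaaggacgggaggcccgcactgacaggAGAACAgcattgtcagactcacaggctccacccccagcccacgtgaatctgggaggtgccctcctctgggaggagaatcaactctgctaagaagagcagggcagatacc

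Pbsn had 1 hexamer, at −95 to −90 from the start. 9530002B09Rik had 2, on opposite strands at −71 to −66 and −52 to −47. Ceacam10 had 3 in the window shown, of which those at −118 to −113 and −112 to −107 adjoin. Its second RefSeq window, around another start, holds the same 3 hexamers, at −155 to −150, −149 to −144 and −96 to −91. Azgp1 had 1 at 15 to 20 past the start, and the Tgm4 window held no match to these letters. The hexamer was present in 19.0% of all 32851 windows, on either strand. AGAACA followed after 3 bases by TGTTCT, the layout of a full palindromic element, was in none of these 5 genes' windows and in 3 of all windows. These matches are a description of the letters and do not show binding.

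Of the 6 genes, 3 were lower in the transgenic pool by at least 1.5-fold on each array (Ceacam10, 9530002B09Rik and Msmb), against 1.3% of all detected genes. None was higher, against 0.91% of detected genes, and Pbsn, Tgm4 and Azgp1 were neither. Ceacam10 passed the detection filter through the wild-type pool. With detection required in both pools on both arrays, 5 of the 6 were left, of which 2 were lower, against 1.24% of 6133 genes, and none was higher, against 1.53%. The mean log2 ratios of transgenic over wild type ran from −1.36 to 0.70, with a median of −0.52 against −0.06 for all detected genes. The median of the 6 was −0.72 on array 1 and −0.61 on array 2. Among the 5 detected in both pools, which leave out Ceacam10, the middle mean ratio was that of Azgp1, at −0.18. The Feature Extraction software also gives a log ratio per spot, called the scanner ratio here. By scanner ratios 2 of the 6 were lower (9530002B09Rik and Ceacam10), against 6.01% of detected genes, and none was higher, against 2.37%. Without background subtraction Ceacam10 alone was lower, against 0.91% of detected genes, and none was higher, against 0.834%. At a 2-fold threshold Ceacam10 alone was lower, against 0.355% of detected genes, and none was higher, against 0.24%. No signal of the 6 probes was saturated.

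**Figure D1:**
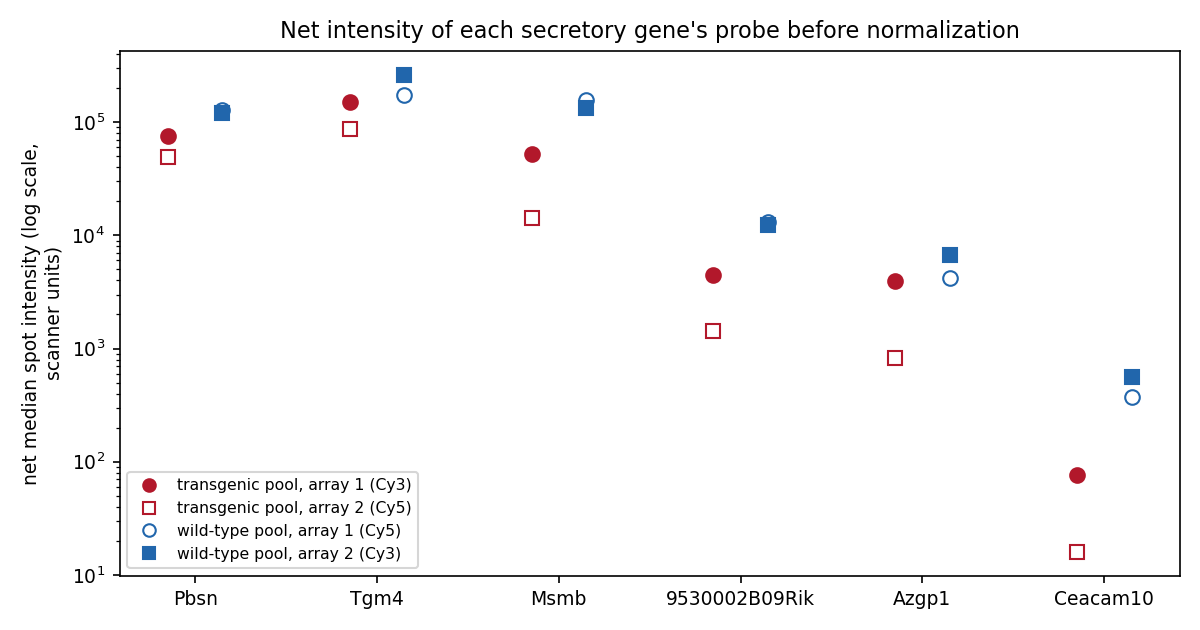
Net median spot intensity (spot minus local background, scanner units, log axis) of each gene's probe before normalization, with the transgenic pool in red left of the wild-type pool in blue, circles for array 1, squares for array 2 and filled symbols for Cy3. Both transgenic values lie below both wild-type values for all 6 genes before the dyes are balanced, those called neither included, and heights of different probes are not comparable.

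Ceacam10, a secreted member of the carcinoembryonic antigen family, had the lowest mean ratio of the 6 in the setting used, though not with median centring (−1.98, against −2.03 for Msmb). Its net intensity was 76 in the transgenic pool on array 1 and 16 on array 2, against 376 and 559 in the wild-type pool. Raw transgenic values were the lower ones for all 6 genes, so this order does not set Ceacam10 apart, and the value of 16 was not well above background. After loess normalization its log2 ratio was −1.46 on array 1 and −1.27 on array 2, a mean of −1.36 ± 0.14 or 2.57-fold lower. Its scanner ratios were −2.62 and −2.05, or 5.04-fold lower. The transgenic signal was well above background on 1 of the 2 arrays. On array 2 it was 1.13 times its local background, so the size on that array depends on how background was treated. Other glands were checked because Ceacam10 is a seminal vesicle product. Of 9 seminal vesicle products with a probe, Serpine2 alone was detected, at 0.15 ± 0.40, and Svs1, Svs2, Svs3a, Svs4, Svs5, Svs6, Pate4 and Spinkl were not. None of 8 epididymal products was detected. The detected relatives Ceacam1 and Ceacam2 had ratios of −0.12 ± 0.59 and 0.01 ± 0.21, and 11 other family members with a probe were not detected.

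9530002B09Rik is also listed under the names Aump, Vpp1 and Vppl in the RefSeq table. Its ratio and that of Msmb lay close together, and their order turned between settings. Its net intensity was 4506.5 and 1423 in the transgenic pool on arrays 1 and 2, against 13163 and 12296.5 in the wild-type pool. Both wild-type values lay well above both transgenic values, with the lowest in Cy5 on array 2. Its log2 ratio was −1.14 on array 1 and −0.68 on array 2, a mean of −0.91 ± 0.33 or 1.88-fold lower. Its scanner ratios were −1.05 and −1.18, or 2.17-fold lower, and in the authors' deposited table it was −1.05 and −1.20. This gene was the only one of the 6 past the rule in that table, where 1.94% of genes were lower. None of the 5 members that table holds was higher, against 2.91% of its genes, and Ceacam10 was not analysed there. Without background subtraction its call ended, at −0.37 on array 2.

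Msmb encodes a small cysteine-rich protein that is among the main components of prostatic fluid. Its net intensity was 52863 and 14288 in the transgenic pool, against 157598 and 133853 in the wild-type pool on arrays 1 and 2. The transgenic values were again below both wild-type values. The log2 ratio was −1.12 on array 1 and −0.59 on array 2, just past the 1.5-fold line there, with a mean of −0.86 ± 0.37 or 1.81-fold lower. Its scanner ratios were −0.87 and −0.38, and the call ended. It also ended in the authors' deposited table (−0.41 on array 2), without background subtraction (0.38) and with the arrays scaled to one spread (−0.56).

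**Figure D2:**
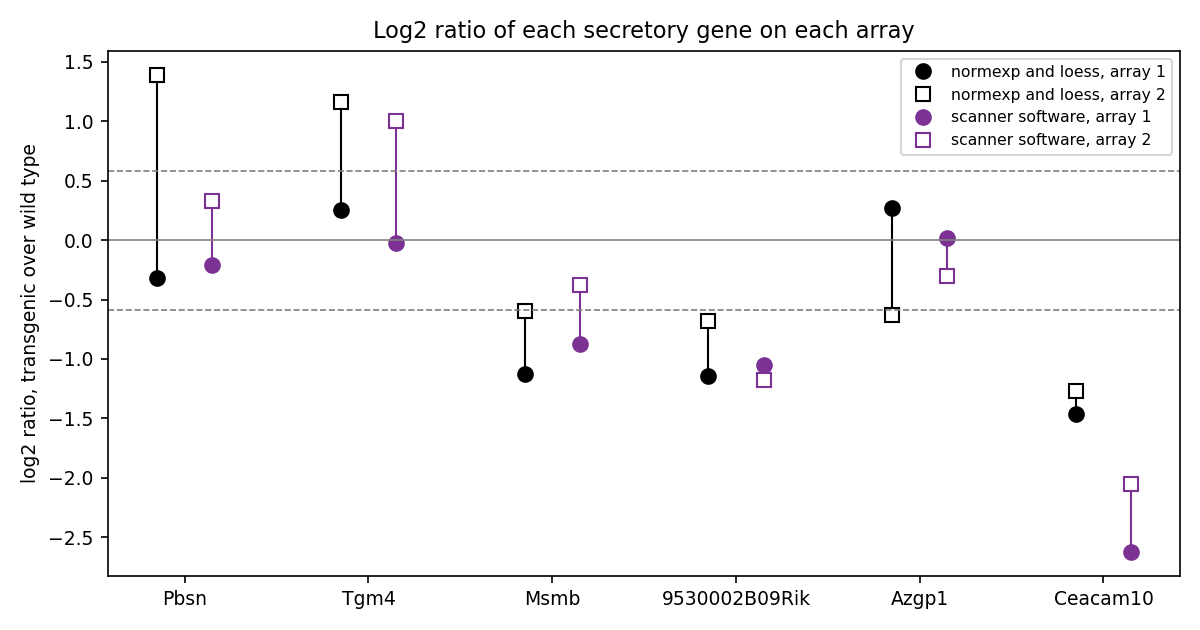
Log2 ratio of transgenic over wild type (y axis) of each gene on array 1 (filled circles) and array 2 (open squares), from normexp and loess (black) and as scanner ratios (purple), with dashed lines at 1.5-fold. Ceacam10 and 9530002B09Rik lie below the lower dashed line on both arrays from either source, while Pbsn spans −0.32 to 1.39 after loess and −0.21 to 0.33 as scanner ratios.

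Pbsn, an androgen-dependent lipocalin secreted by the dorsolateral lobes, gave opposite signs on the arrays. Its net intensity was 75633 and 49214 in the transgenic pool on arrays 1 and 2, against 129045 and 120483 in the wild-type pool. Its log2 ratio was −0.32 on array 1 and 1.39 on array 2, a mean of 0.54 ± 1.21, and the scanner ratios were −0.21 and 0.33. The arrays thus disagreed by more than the mean, and on array 2 the direction after normalization was opposite to that of the raw intensities. At this intensity the loess curve added 0.45 on array 1 and 2.68 on array 2 to the log2 ratio. Just 10 and 8 spots on arrays 1 and 2 were brighter than Pbsn. With each array centred on its median in place of loess, Pbsn was at −0.66 and Tgm4 at −0.53, so the sign of both depends on this step. In that setting the median of all detected genes was itself −0.57, so both genes lay close to that median.

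Tgm4 had net intensities of 149981 and 87525.5 in the transgenic pool, against 174247 and 263369 in the wild-type pool. Its log2 ratio was 0.25 on array 1 and 1.16 on array 2, a mean of 0.70 ± 0.64, and the scanner ratios were −0.02 and 1.00. Both sources put it near 0 on array 1 and above 0 on array 2, so the value rests on array 2. There the curve added 2.75, with 3 brighter spots. Of the 6 transglutaminase genes of the family list with a probe, 3 were detected (Tgm2, Tgm5 and F13a1) and none passed the rule.

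**Figure D3:**
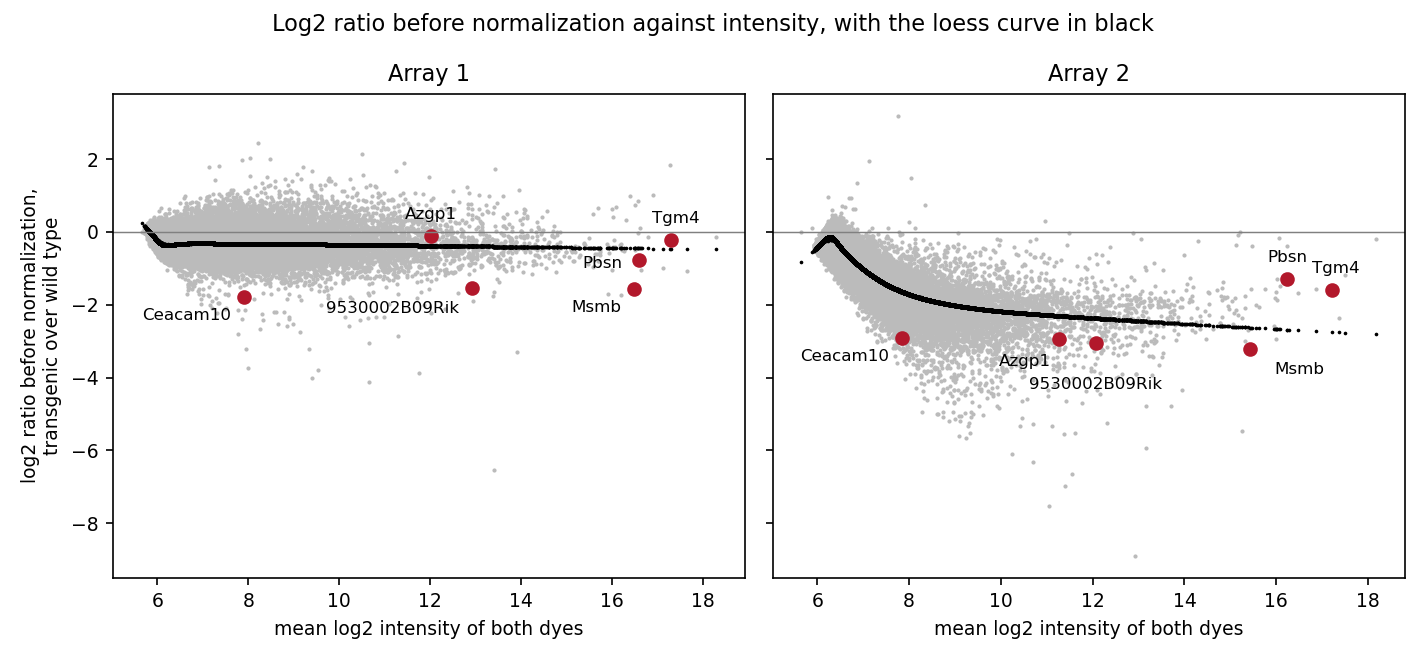
Log2 ratio of transgenic over wild type before normalization (y axis) against the mean log2 intensity of both dyes (x axis) for all probes (grey), with the loess curve (black) and the 6 genes (red), for array 1 and array 2. The curve is nearly flat on array 1 and bends down on array 2, where Pbsn and Tgm4 lie above it and Msmb, 9530002B09Rik, Azgp1 and Ceacam10 below it.

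Azgp1, a secreted protein with an MHC class I-like fold that is also an adipocyte product, was the last of the group. Its net intensity was 3928 and 825 in the transgenic pool, against 4217 and 6769 in the wild-type pool. Its log2 ratio was 0.27 on array 1 and −0.63 on array 2, a mean of −0.18 ± 0.64, and the scanner ratios were 0.01 and −0.30. The signs were thus opposite with either source, and no difference beyond the spread of the arrays was seen. The array 1 raw intensities of the pools were close to each other. Of 6 class I-like genes with a probe, all were detected and H2-K1 was lower.

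**Figure D4:**
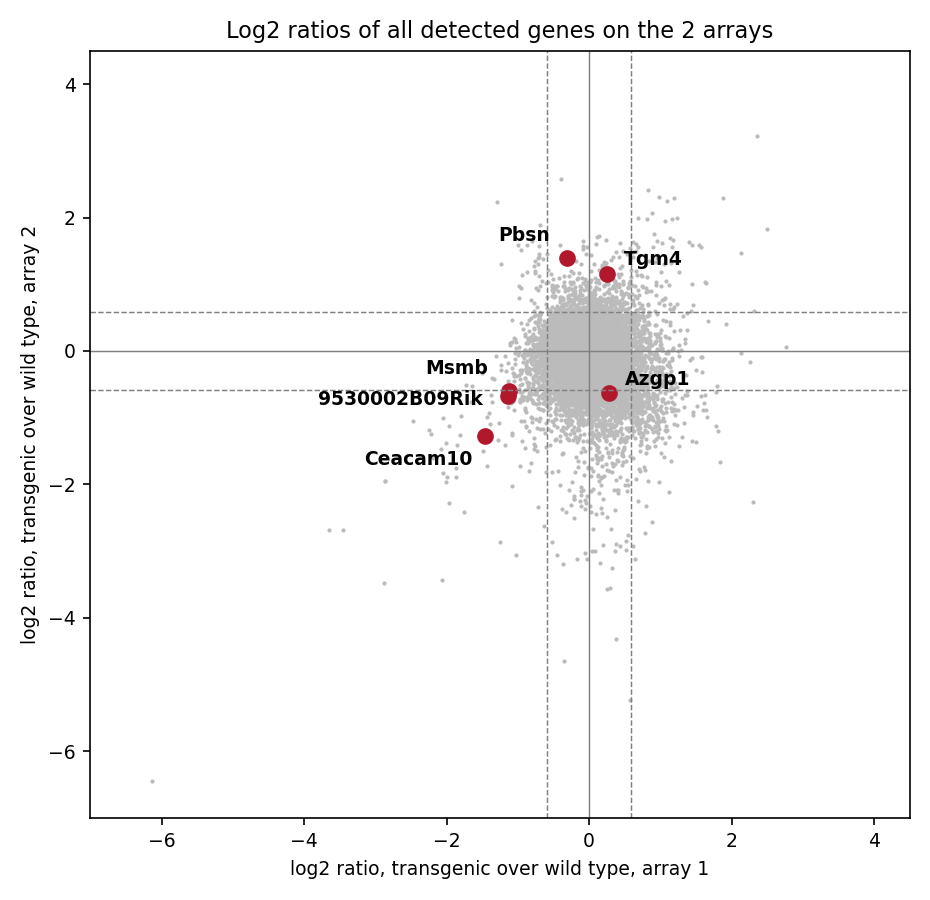
Log2 ratios of transgenic over wild type of all 10435 detected genes (grey) on array 1 (x axis) and array 2 (y axis), with the 6 secretory genes in red and dashed lines at 1.5-fold. Ceacam10, 9530002B09Rik and Msmb fall in the corner that is low on both arrays, Msmb at its edge (−0.59 on array 2), and Pbsn, Tgm4 and Azgp1 outside it.

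Ratios were also compared between the genes, a comparison chosen after the values were seen. On array 2 the loess shift was 2.63 for Msmb, 2.68 for Pbsn and 2.75 for Tgm4, but 2.37 for 9530002B09Rik and 1.64 for Ceacam10, so differences that involve the last pair still depend on it. The log2 ratio of Msmb minus that of Pbsn was −0.81 on array 1 and −1.99 on array 2, and −0.67 and −0.71 by scanner ratios. The log2 ratio of Msmb minus that of Tgm4 was −1.37 and −1.75, and −0.85 and −1.39 by scanner ratios. Msmb thus stood at least 1.5-fold below both genes, in relative terms, on each array and in all 7 settings compared. For differences between genes these settings were not all separate checks. The deposited table repeats the scanner differences up to rounding, and scaling between arrays multiplies all differences on an array by the same constant. For 9530002B09Rik the difference from Pbsn was −0.83 and −2.07, and −0.85 and −1.51 by scanner ratios, also past 1.5-fold in all 7 settings. Ceacam10 was likewise below Pbsn and Tgm4 in the 6 settings that hold it, although its difference from Pbsn on array 2 was −2.66 after loess and −1.62 with median centring. Of all other detected genes, 1.16% were this far below Pbsn on each array and 16.8% below Tgm4 (4.67% and 10.3% by scanner ratios). Among 15 pairs of the 6 genes, 7 differed by at least 1.5-fold in one direction on each array. These were Ceacam10, 9530002B09Rik and Msmb against Pbsn and against Tgm4, and Ceacam10 against Azgp1. The count thus largely restates the calls, and the share over pairs of all detected genes was not computed. The log2 ratio of 9530002B09Rik minus that of Msmb was −0.02 and −0.09 on arrays 1 and 2, −0.18 and −0.79 by scanner ratios and 0.15 and −0.75 without background subtraction. The log2 ratio of Tgm4 minus that of Pbsn was 0.57 and −0.23, opposite in sign on the arrays. By scanner ratios it was 0.18 and 0.67, above 0 on both. These differences show unequal ratios and not which gene changed.

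**Figure D5:**
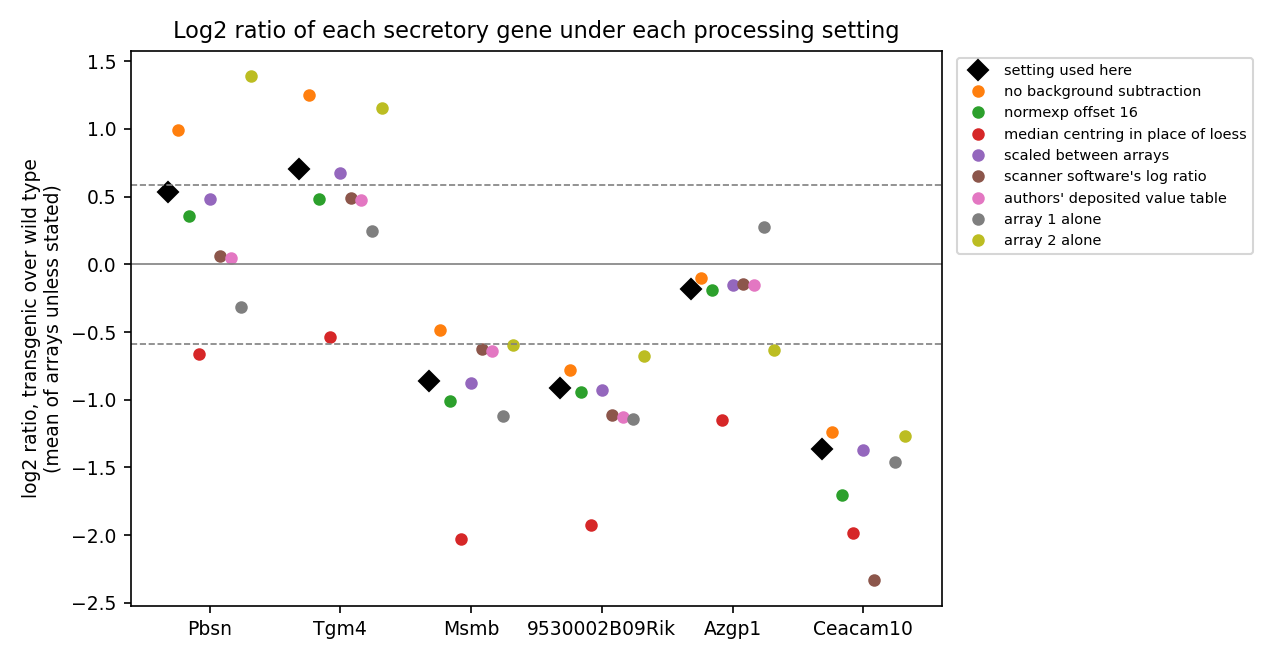
Log2 ratio of transgenic over wild type (y axis, mean of both arrays unless stated) of each gene under the setting used here (black diamond) and 8 others (coloured points), with dashed lines at 1.5-fold. Ceacam10, 9530002B09Rik and Msmb lie below 0 under each of these settings, whereas Pbsn, Tgm4 and Azgp1 fall on both sides of 0.

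Genes whose ratios lay nearest to those of the 3 lower genes were found by Euclidean distance over the 2 arrays, which is too few points to define a pattern. Nearest to Msmb were Psmb9 (an immunoproteasome subunit), Tcn2 (a cobalamin carrier) and Cyp2b13 (a cytochrome P450), at distances of 0.01 to 0.08 in log2 units. Nearest to 9530002B09Rik were Psmb9, Cyp2b9 and Cyp2b13, and nearest to Ceacam10 were Pglyrp1 (a peptidoglycan-binding protein), Ido1 (a tryptophan-degrading enzyme) and Cidea (a lipid droplet protein), at 0.05 to 0.19.

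Other secreted prostate products were set beside the 6 genes. Of 23 with a probe 19 were detected. Pnliprp1 was higher and 7 were lower. The other 11 passed neither way, and the median log2 ratio of the list was −0.40. Over all detected genes 1.3% were lower and 0.91% higher, the shares beside which the counts of this paragraph stand. The lower genes include Spink1, Spink5, Sbp and Sbpl, of the Kazal-type and spermine-binding groups left aside above. They also include Ltf, whose transgenic signal was well above background on 1 array only. The largest ratios were those of Spink1, Sbp and Spink5, all lower. The medians of this list were −0.33 and −0.79 on arrays 1 and 2. In the lipocalin family of Pbsn, 3 of 11 genes with a probe were detected. Lcn2, an iron-sequestering defence protein, and Rbp4, the retinol carrier, were lower, and Apod was neither. The transgenic signal of Lcn2 and of Rbp4 was well above background on 1 array only, so the sizes depend on the background treatment. Lcn2 was at −1.86 and −1.88 on arrays 1 and 2 and at −2.68 and −3.03 by scanner ratios. With detection in both pools Apod alone was left of this family, at −0.07. Among 33 detected genes of the secretory pathway, 3 were lower (Ssr2, Hspa5 and Xbp1), 1 was higher (Kdelr2) and 29 were neither, with a median of −0.10. Ssr2, a subunit of the translocon-associated complex, was at −1.70 ± 0.44, a call that the scanner ratios ended (−0.31 on array 2). Kdelr2, a receptor that returns proteins to the endoplasmic reticulum, was at 0.93 ± 0.29, a call that ended in the same way (0.44 on array 1). Among 14 detected androgen-responsive genes Spink1 and Hoxb13 were lower and Tmprss2 higher. The call of Tmprss2 also ended by scanner ratios (0.57 on array 1). The other 11 passed neither way, and the median was −0.02.

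Cell type markers were read beside these ratios, since fewer cells of a type and less RNA per cell cannot be told apart in pooled tissue. All 12 luminal markers were detected. Their summed normalized intensity was 54256 and 39953 in the transgenic pool on arrays 1 and 2, against 56436 and 44813 in the wild-type pool, and Hoxb13 alone was lower (−0.69 ± 0.03). The median of the luminal markers was −0.13. No gene was called among 7 basal markers (median −0.18), 8 stromal markers (−0.22) and 3 detected urothelial markers (Upk1a, Upk1b and Upk2, 0.01). On arrays 1 and 2 the stromal median was 0.50 and −0.99, so the arrays disagreed and −0.22 does not show stable stromal RNA. The urothelial median also differed in sign (−0.14 and 0.30), while the basal one was −0.10 and −0.23. Of 7 detected adipocyte markers 6 were lower, with summed intensities of 2282 and 1691 in the transgenic pool against 7556 and 8723 in the wild-type pool, and Lep was not detected. These were Cfd, Fabp4, Car3, Adipoq, Cidec and Retn, of which Fabp4 and Cidec alone had a transgenic signal well above background on both arrays. Of 8 detected leukocyte markers 3 were lower (Cd74, H2-Aa and Jchain), with sums of 1267 and 1687 in the transgenic pool against 3515 and 5438 in the wild-type pool. The transgenic signal of Jchain was well above background on 1 array only. The part of these cell types in the ratios of the secretory genes was not tested.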

How the data were processed

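RNA of each pool was labelled from 100 ng with a low-input kit and read on 2-colour Agilent arrays with Feature Extraction 11.0.1.1, per the labels' protocols and the file headers. The spot and background columns used are deposited intensity values (the median over pixels, per dye), with no subtraction or dye balancing, per the file headers. The deposited scanner ratio is a log10 value, Cy5 divided by Cy3, after the software's own background subtraction and dye normalization, per the file headers, and was turned to transgenic over wild type in log2. The authors' deposited table (8533 rows) holds log2 ratios that follow the scanner values of each array, and its filter is not stated in the labels or files.

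Ratios were computed with limma 3.58.1 in R 4.3.3: normexp with an offset of 50, then loess within each array, with control and outlier spots at weight 0. Probes were named through RefSeq transcripts of GRCm38.p6 (27816 matched). The design annotation cites mm9, so no gene coordinates are given beyond the promoter windows. Detection required a signal well above background on both arrays in 1 pool or more, and a gene took its brightest detected probe. A gene was called at 1.5-fold in one direction on each array. For 245 probes with 10 spots each, the log2 ratio varied by a median SD of 0.17 on array 1 and 0.23 on array 2, and the software's error of the 6 genes' log2 ratios was 0.20 to 0.35. The number of arrays limits the precision. At 1.5-fold 282 genes followed Cy3 and 36 followed Cy5 in place of the pool, and none of the 6 did. The steps were tested on simulated data with the same mild dye bias on both arrays, so the larger loess shifts of array 2 were not covered. The genes and 16 lists were chosen with earlier results of these data known. Named genes were all 6, up to 3 called genes per list, markers of other glands and cell types, and the 3 genes nearest to each called one. Others were named, after their values were seen, where a count was small. The family list of Msmb (Msmp) had no matched probe. Tables and figures were made with pandas 2.3.3, numpy 2.4.6 and matplotlib 3.10.9 in Python 3.11.15.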

Additional observations from a re-analysis of the deposited data

How the results depend on the processing

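Ceacam10 was lower by the size rule under each of the 10 alternatives that hold it, and 9530002B09Rik under 10 of 12, the exceptions being no background subtraction and a 2-fold threshold. Several of these alternatives could not end a call. With 1 probe per gene, averaging probes or changing the detection filter left the ratios as they were. Each array alone also had to pass, because the rule already required both. No called gene turned the direction of its mean ratio. Without background subtraction Msmb had a mean of −0.48 but was at 0.38 on array 2. In that setting 1 gene of the 6 was lower, and 1 was lower in the deposited table and at 2-fold. With median centring the median of all detected genes was −0.57, and Tgm4 was at −0.53, Msmb at −2.03, 9530002B09Rik at −1.93, Azgp1 at −1.15, Ceacam10 at −1.98 and Pbsn at −0.66. Ceacam10 was at −1.70 with an offset of 16 and at −2.33 with the scanner ratios. On array 2 alone 2 of the 6 were higher (Pbsn and Tgm4), against 544 of 10435 detected genes, and 4 lower, against 1569. On array 1 alone 0 were higher, against 845 of 10435, and 3 lower, against 558. The single-array values, array 1 and then array 2, were −0.32 and 1.39 for Pbsn, 0.25 and 1.16 for Tgm4, −1.12 and −0.59 for Msmb, −1.14 and −0.68 for 9530002B09Rik, 0.27 and −0.63 for Azgp1 and −1.46 and −1.27 for Ceacam10.

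Among all detected genes, 136 were lower and 95 higher in the setting used. These counts were 95 and 87 without background subtraction, 240 and 149 with an offset of 16, 554 and 2 with median centring, 627 and 247 with the scanner ratios, and 37 and 25 at 2-fold. They were 119 and 178 in the deposited table, 76 and 94 with detection in both pools, 558 and 845 on array 1 alone and 1569 and 544 on array 2 alone. The cause was not tested. Each gene had 1 probe, so the choice of probe could not move its ratio. Low signal limits the result for Ceacam10 alone of the 6. The probes of Pbsn, Tgm4 and Msmb were among the brightest, and the sign of their array 2 ratios depended on the processing. No paired analysis was possible because both arrays repeat the same RNA pools, which leaves no replicate to test over.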
